A study of Homo sapiens with 6 samples.

Results

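The 10 genes described here encode heat shock proteins of the cytosol and the mitochondrion: HSPA1A, HSPA1B and HSPA8 of the HSP70 family, the HSP70 helpers DNAJB1 and HSPH1, the HSP90 genes HSP90AA1 and HSP90AB1, the small heat shock protein HSPB1, and the mitochondrial chaperonin pair HSPD1 and HSPE1. They were chosen by symbol, and all 10 had a row among the 17104 genes of the deposited count table. Expression was measured by RNA-seq of total RNA from HBMEC, labelled as a cell line of brain microvascular endothelial cells. The control group held 3 libraries from cells in normal culture, and the other group held 3 libraries from cells put through oxygen-glucose deprivation/reperfusion (OGD/R), a culture model of stroke that takes away oxygen and glucose and then restores them. The sources used here do not give the length of either phase. The labels do not tell whether the libraries of a group stem from separate cultures. The p-values therefore reflect the variation among these 6 samples, which may be technical variation.

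Heat shock proteins are chaperones: they bind unfolded proteins, keep them from clumping and help them fold. HSP70 binds short exposed stretches, with a J-domain protein delivering the client and a nucleotide exchange factor releasing it, and HSP90 takes over clients such as kinases and hormone receptors together with cochaperones. HSF1, the main heat shock factor, is held back by chaperones in unstressed cells and, when unfolded proteins accumulate, binds heat shock elements, runs of GAA and TTC units in promoters. HSPA8, HSP90AB1 and HSPD1 are abundant without stress, whereas HSPA1A, HSPA1B and DNAJB1 are classic heat-inducible genes. Ischemia and the return of oxygen are known to disturb protein folding in cells of the brain.

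Promoter stretches that hold the letters of a heat shock element are shown before the values, since HSF1 is known to act through such elements. The letters were searched as a run of 3 alternating units, GAANNTTCNNGAA or TTCNNGAANNTTC, and as a run of 2 units, GAANNTTC or TTCNNGAA, in the 250 bases before each annotated RefSeq start. These patterns cover both strands, and each 3-unit run contains overlapping 2-unit runs. All 10 genes matched the RefSeq promoter table (GRCh38.p14), some with several starts. The stretches were picked after the matches were seen. They lie at chr6:31815373-31815463 (plus strand), chr6:31827569-31827659 (plus), chr19:14518421-14518527 (minus), chr7:76302453-76302543 (plus), chr6:44247743-44247865 (plus), chr14:102087113-102087142 (minus) and chr11:123062171-123062200 (minus). Each is written from 5′ to 3′ on the gene's strand, and capitals mark the runs of 2 or 3 units. The HSP90AA1 and HSPA8 stretches lie in annotated GENCODE 29 exons and are limited to 30 bases, and the other stretches lie in no such exon.
HSPA1A: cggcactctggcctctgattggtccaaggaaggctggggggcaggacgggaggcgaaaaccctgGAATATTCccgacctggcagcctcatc
HSPA1B: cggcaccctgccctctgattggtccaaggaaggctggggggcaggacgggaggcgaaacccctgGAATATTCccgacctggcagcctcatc
DNAJB1: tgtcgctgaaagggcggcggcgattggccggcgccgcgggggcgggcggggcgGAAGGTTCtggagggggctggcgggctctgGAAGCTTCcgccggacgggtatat
HSPB1: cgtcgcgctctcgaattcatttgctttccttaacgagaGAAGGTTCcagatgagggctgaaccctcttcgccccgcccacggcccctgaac
HSP90AB1: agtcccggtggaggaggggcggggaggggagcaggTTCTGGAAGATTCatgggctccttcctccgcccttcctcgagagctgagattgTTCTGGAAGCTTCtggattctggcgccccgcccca
HSP90AA1: gggagggttcTTCCGGAAGGTTCgggaggc
HSPA8: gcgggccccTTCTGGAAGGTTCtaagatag

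A 3-unit run was found before a start of 4 of the 10 genes, HSP90AA1, HSP90AB1, HSPA8 and HSPD1, and in 0.56% of the 27305 genes of the table (155 of its 35116 promoter windows). A 2-unit run was found in 8 of the 10 genes and in 13.96% of all genes (11.58% of windows). HSPH1 and HSPE1 had neither run in this window, which says only that these letters are not there. HSP90AB1 held 2 separate 3-unit runs, at -165 and -112 from its start. HSPA8 also held 2, at -230 and -55, and its printed stretch shows only the run at -55. HSP90AA1 held a further 2-unit run at -68, just past the end of its printed stretch. HSPD1 held 2 overlapping 3-unit runs, at -245 and -240 from an annotated start, and its stretch is not printed. The HSPA1A and HSPA1B stretches were identical at 88 of 91 bases, and both carry GAATATTC, at -106 and -105. TATAAA and CCAAT, searched on both strands after the first look, were found in 13.05% and 37.0% of all genes. Among the 10 genes TATAAA was found in HSPA1A and HSPA1B, at -30 and -29, and CCAAT in 5 genes. A match is a string of letters, and binding was not measured.

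The libraries held 31048662 to 34484647 counts. In the same table, 7 of 16 listed endothelial marker genes had a row. Their summed level was 289.7 to 306.0 CPM (counts relative to library size, TMM-scaled) in controls and 291.7 to 304.7 after OGD/R. The defining genes PECAM1, VWF, KDR, TIE1 and CLDN5 were on the list and had no row. Of the 7 with a row, CDH5 was called higher (log2 fold change 0.81). ROBO4 (-0.75), SOX18 (-0.33) and MMRN2 (-1.75) were called lower, and all 4 were named after their values were seen. MMRN2 had 20 to 31 counts per control library and 2 to 15 per OGD/R library. Most of the sum came from ESAM, ENG and EGFL7, not called, with control means of 137.9, 78.4 and 52.7 CPM. Of 12 epithelial markers 8 had a row, with 4 called higher. The 8 summed to 2484.8 to 2710.9 CPM in controls and 3047.5 to 3103.7 after OGD/R. Most of that sum came from KRT8, KRT18 and KRT7, named after their values were seen, with control means of 1235, 848 and 356 CPM. These and ELF3 were the genes called higher. EPCAM, CDH1, CLDN4 and ESRP1 were not called, and KRT19, CLDN3, CLDN7 and GRHL2 had no row. The part of these markers in the results on chaperones was not tested. Marker sums for fibroblasts or pericytes were 21.2 to 23.1 and 17.8 to 24.8 CPM, and those for astrocytes, neurons or microglia stayed at or under 1.2 CPM. In bulk RNA, fewer cells of a type and less RNA per cell cannot be told apart.

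The 10 genes moved in both directions after OGD/R. Both HSP90 genes, the small heat shock gene HSPB1 and both chaperonin genes rose, by 15.3% to 51.5%. The heat-inducible HSP70 genes HSPA1A and HSPA1B and their J-domain partner DNAJB1 were lower: DNAJB1 fell by 13.2%, HSPA1A fell by 13.8% and HSPA1B fell by 19.7%. HSPA8, the constitutive HSP70, and HSPH1, an HSP70 exchange factor, did not pass the test. Of the 10, 5 were called higher, 3 lower and 2 in neither direction, with edgeR's quasi-likelihood test and a Benjamini-Hochberg adjusted p under 0.05. Over all 17104 genes, 19.7% were called, with 10.2% higher and 9.48% lower; scaling to total counts alone turned the higher share of the called genes from 51.9% to 39.7%. The 2 groups did not overlap in 8 of the 10 genes, against 33% of all genes. By size of log2 fold change, the called genes exceeded 61.8% (DNAJB1) to 92.5% (HSPE1) of all genes. In control level per kilobase of exon, the 10 exceeded 63.3% (HSPE1) to 99.8% (HSP90AB1) of all genes. The part of this depth in the share called was not tested. The median log2 fold change (OGD/R over control) was 0.15 over the 10 genes and -0.0046 over all genes. All 10 summed to 6298.6 ± 198.3 CPM (SD, n = 3) in controls and 7400.4 ± 224.0 CPM after OGD/R. Most of that difference came from HSP90AA1 (means of 1790 and 2421 CPM) and HSP90AB1 (1569 and 1938 CPM).

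**Figure D1:**
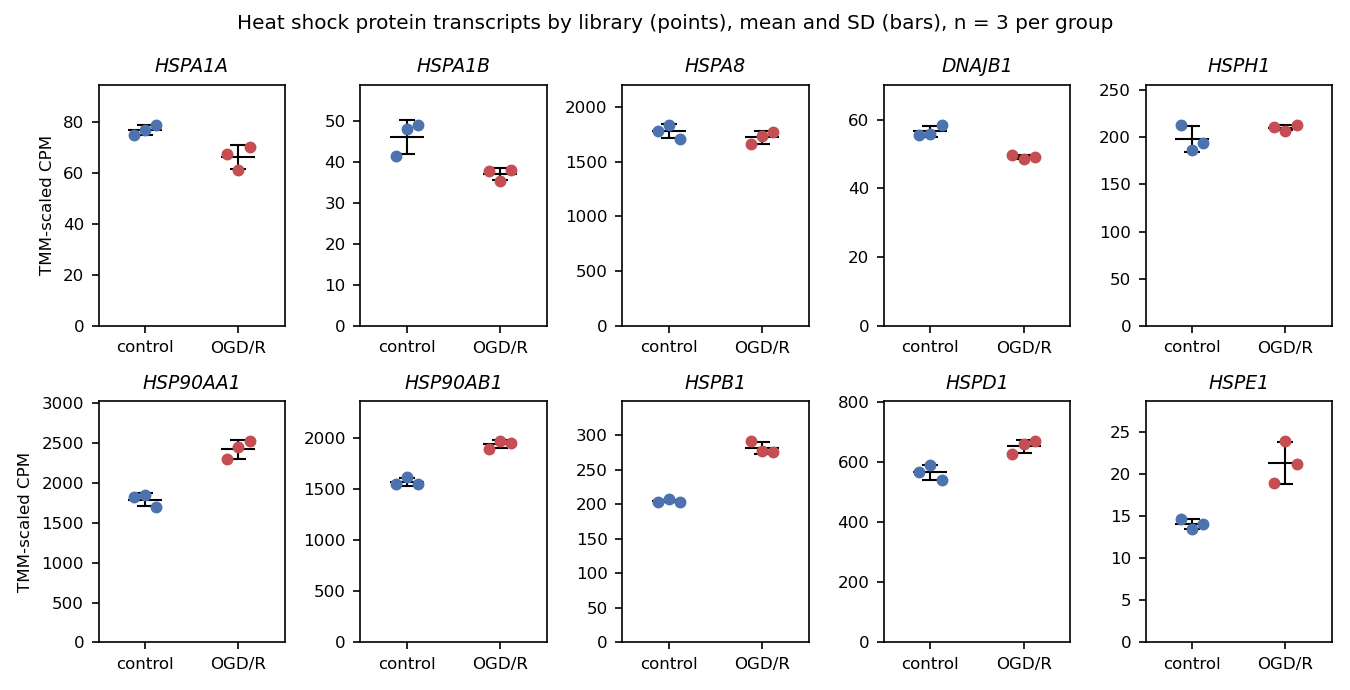
TMM-scaled CPM of each of the 10 genes in every library (points), with the mean and SD (bars) of 3 libraries in the control and OGD/R groups; every axis starts at 0. All OGD/R libraries sat above all controls for HSP90AA1, HSP90AB1, HSPB1, HSPD1 and HSPE1, and below all controls for HSPA1A, HSPA1B and DNAJB1.

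HSPA1A encodes the main stress-inducible HSP70. It stood at 74.9, 77.0 and 79.0 CPM in control replicates 1 to 3 and at 67.7, 61.3 and 70.1 CPM in OGD/R replicates 1 to 3. The groups did not overlap, and OGD/R replicate 2 was the lowest library. Means were 76.97 ± 2.05 and 66.35 ± 4.56 CPM (SD, n = 3), a log2 fold change of -0.21 ± 0.06 (SE, edgeR adjusted p = 0.00392). Without OGD/R replicate 2 it was -0.16 and no longer passed the threshold (edgeR adjusted p = 0.0801).

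HSPA1B, whose product is almost the same protein, had 41.4, 48.0 and 49.1 CPM in controls and 37.7, 35.3 and 38.1 CPM after OGD/R. Control replicate 1 stood nearest to the OGD/R libraries, and the groups did not overlap. The log2 fold change was -0.32 ± 0.07 (SE, edgeR adjusted p = 0.00053). Of the 75-base subsequences of the HSPA1A transcript, 71.2% also occur in HSPA1B, so reads of one can be counted for the other or dropped. AL671762.1, a gene not analysed here, overlaps 36.5% of the HSPA1B exon bases. With the 2 genes summed the level was 123 ± 6.14 CPM in controls and 103 ± 6.04 CPM after OGD/R (n = 3), and the log2 fold change was -0.25 ± 0.05 (SE, edgeR adjusted p = 0.000133).

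DNAJB1, an HSP40 protein that hands clients to HSP70, had 55.4, 55.9 and 58.5 CPM in controls and 49.7, 48.5 and 49.1 CPM after OGD/R. All 3 OGD/R libraries lay below all controls, within a narrow range. The log2 fold change was -0.20 ± 0.06 (SE, edgeR adjusted p = 0.00997). It missed the threshold without control replicate 3 (-0.18, edgeR adjusted p = 0.0736).

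HSPA8 is the constitutive HSP70 that also uncoats clathrin vesicles. It ran at 1784, 1837 and 1709 CPM in controls and 1659, 1737 and 1774 CPM after OGD/R, and the groups overlapped. Its log2 fold change was -0.04 ± 0.04 (SE, edgeR adjusted p = 0.508). With trends on transcript length and GC content removed, HSPA8 was called lower (-0.11, edgeR adjusted p = 0.00792). HSPH1, an HSP110 protein that helps HSP70 release clients and dissolve aggregates, had 213, 186 and 194 CPM in controls and 211, 207 and 213 CPM after OGD/R. Control replicate 1 lay among the OGD/R libraries, and the log2 fold change was 0.09 ± 0.04 (SE, edgeR adjusted p = 0.177). Without control replicate 1, HSPH1 was called higher (0.15, edgeR adjusted p = 0.0163).

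HSP90AA1, the HSP90 form that responds to stress, had 1824, 1849 and 1697 CPM in controls and 2295, 2446 and 2522 CPM after OGD/R. Each OGD/R library was above each control. Means were 1790 ± 81.6 and 2421 ± 116 CPM (SD, n = 3), and the log2 fold change was 0.44 ± 0.04 (SE, edgeR adjusted p = 1.84e-11). HSP90AB1, the constitutive form, had 1549, 1614 and 1545 CPM in controls and 1895, 1967 and 1953 CPM after OGD/R. Its groups were also apart, with a smaller log2 fold change of 0.30 ± 0.04 (SE, edgeR adjusted p = 3.87e-08).

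HSPB1 (HSP27), an ATP-independent holdase that also binds actin, had the lowest coefficient of variation of the 10 genes in controls (1.0%), at 204, 207 and 203 CPM. It reached 291, 277 and 275 CPM after OGD/R. The gap between the groups was larger than the range within either, and the log2 fold change was 0.46 ± 0.04 (SE, edgeR adjusted p = 2.99e-12).

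HSPD1 (HSP60) forms the ring in which mitochondrial proteins fold, and HSPE1 (HSP10) is its lid. HSPD1 had 567, 592 and 540 CPM in controls and 627, 661 and 670 CPM after OGD/R, a log2 fold change of 0.21 ± 0.04 (SE, edgeR adjusted p = 0.000171). The groups were apart, and after the length and GC correction the value was 0.12 and still called (edgeR adjusted p = 0.00461). HSPE1 had 14.7, 13.5 and 14.1 CPM in controls and 19.0, 23.9 and 21.2 CPM after OGD/R. Its log2 fold change of 0.60 ± 0.10 (SE, edgeR adjusted p = 5.39e-06) was the largest of the 10, on the lowest counts, 454 to 733 per library. After the length and GC correction HSPE1 was at 0.43 ± 0.09 (SE, edgeR adjusted p = 0.00051). HSPB1 and HSP90AA1 were both at 0.41 under that correction. HSPD1 and HSPE1 lie head to head on chromosome 2, with annotated starts 105 bases apart. Of the 75-base subsequences of HSPE1, 43.9% occur in other genes, 21.7% in HSPD1, and 23.9% of its exon bases overlap HSPD1 or HSPE1-MOB4, the second of which was not analysed here. The sources used here do not say how such reads were counted.

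**Figure D2:**
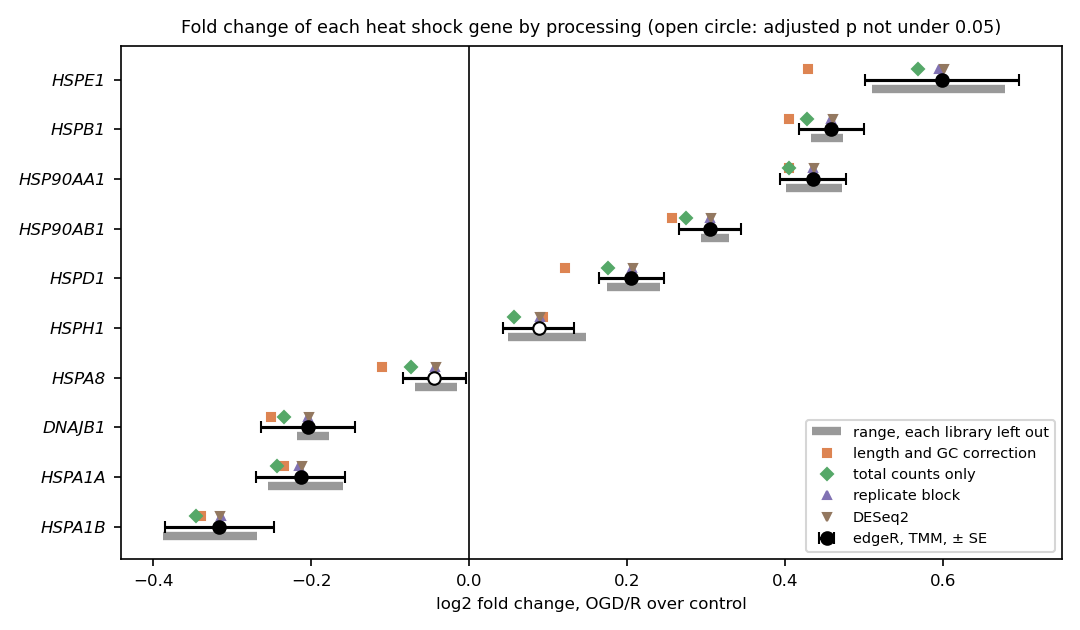
Log2 fold change (OGD/R over control) of each of the 10 genes, with black circles for edgeR with TMM scaling ± SE, coloured marks for other settings and grey bars for the range when each library is left out. Open circles mark HSPA8 and HSPH1, which did not pass the threshold; every gene kept its sign in the settings drawn.

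To set levels side by side between genes, CPM was divided by exon length in kilobases. In controls HSP90AB1 ranked first at 526.6 ± 13.1 CPM per kb (SD, n = 3), above 99.8% of all genes. HSPA8 at 366.4 ± 13.3 and HSP90AA1 at 341.1 ± 15.5 followed, and their means differed by less than the sum of their SDs. HSPD1 at 133.4 ± 6.2 and HSPB1 at 125.2 ± 1.25 came next. HSPA1A stood at 31.0, HSPH1 at 23.6, HSPA1B at 18.3, DNAJB1 at 15.4 and HSPE1 at 7.12 CPM per kb. The levels of HSPA1A, HSPA1B and HSPE1 may depend on how reads of shared sequence were counted, which the sources used here do not say. Apart from HSPA8 and HSP90AA1, the means of neighbours in this order lay further apart than the sum of their SDs. These SDs cover variation between libraries only, and the order in controls also depends on the length used. With the length of the longest transcript in place of exon length, HSPH1 stood above HSPA1A in controls, and DNAJB1 above HSPA1B. After OGD/R, HSP90AA1 at 461.3 ± 22.1 stood above HSPA8 at 355.4 ± 12.1, and HSPB1 at 172.0 ± 5.23 above HSPD1 at 153.8 ± 5.34. Both orders depend on the length used. Per kilobase of the longest transcript, HSPA8 ranked first in controls, at 721.3, and after OGD/R HSPA8 at 699.6 stood above HSP90AA1 at 689.7, and HSPD1 at 265.9 above HSPB1 at 193.2.

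Ratios of counts within a library do not depend on the scaling between libraries. HSPA1A plus HSPA1B over HSPA8, inducible over constitutive HSP70, was 0.0652, 0.0681 and 0.0749 in controls and 0.0635, 0.0556 and 0.0610 after OGD/R. HSP90AA1 over HSP90AB1 was 1.18, 1.15 and 1.10 in controls and 1.21, 1.24 and 1.29 after OGD/R. HSPD1 over HSPE1 was 38.6, 43.8 and 38.3 in controls and 33.1, 27.6 and 31.6 after OGD/R. The size of this last ratio, and that of HSPA1A plus HSPA1B over HSPA8, may depend on how reads of shared sequence were counted. In these 3 ratios control and OGD/R libraries were fully separated, and the group means differed between groups by -0.21, 0.13 and -0.39 on the log2 scale. In each, the two-sided exact permutation test gave p = 0.1 (n = 3 per group), the smallest p that 3 against 3 allows, and 0.1 after adjustment over the 3. Another ratio, HSPA1B over HSPA1A, was added after the data were seen and was not adjusted. It overlapped between groups (log2 difference -0.10, exact permutation p = 0.3, n = 3 per group).

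**Figure D3:**
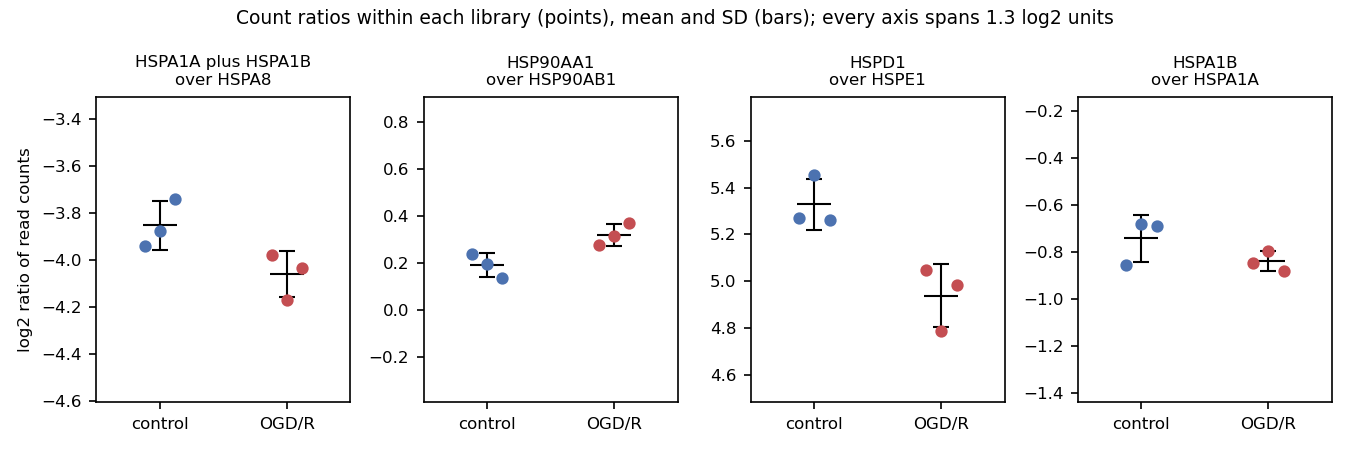
Log2 ratio of read counts within each library (points), with mean and SD (bars), for control and OGD/R; each axis spans the same log2 range. The first 3 panels show groups that do not overlap, and HSPA1B over HSPA1A overlaps.

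Beyond the 10 genes, 68 genes of the chaperone system were listed, of which 62 had a row. Of these 62, 17 rose and 2 fell, or 30.6% called, against 19.7% of all genes, and the median log2 fold change was 0.06. HSP90 cochaperones had the most rises, 6 of 12. By the naming rule, PTGES3 (p23), which stabilises the closed HSP90 clamp, rose from 368.7 ± 14.7 to 474.0 ± 17.5 CPM (SD, n = 3), a log2 fold change of 0.36 ± 0.04 (SE, edgeR adjusted p = 2.16e-09). The other 5, named after their values were seen, were AHSA1, which speeds the HSP90 ATPase, at 0.29, SUGT1 at 0.25, NUDC at 0.21, CDC37, which brings kinases to HSP90, at 0.15, and STIP1, which bridges HSP70 and HSP90, at 0.14.

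Among 9 other HSP70 family genes, HSPA14 rose (log2 fold change 0.40 ± 0.07 SE, edgeR adjusted p = 6.69e-06) and so did HSPA4, an HSP110-type exchange factor named after its values were seen (0.27). HSPA14 shares 17.4% of its exon bases with other annotated genes. HSPA9, mitochondrial HSP70, stood at 425.2 ± 24.1 and 414.2 ± 2.08 CPM (n = 3, edgeR adjusted p = 0.598). HSPA6, a strictly inducible HSP70, had 8 to 12 counts in control libraries and 18 to 23 after OGD/R, and did not pass the test (log2 fold change 1.03 ± 0.53 SE, edgeR adjusted p = 0.183).

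Of 15 other J-domain genes 2 rose, DNAJB5 at 0.37 ± 0.09 (SE, edgeR adjusted p = 0.00225) and DNAJC8, named after its values were seen, at 0.22. Of 10 exchange factors and HSP70 partners, 3 rose, again named after the values were seen: HIKESHI, which carries HSP70 into the nucleus, at 0.29, BAG1 at 0.19 and ST13 at 0.16. BAG3, an HSF1-responsive exchange factor, had 70.9 ± 2.13 and 68.8 ± 3.99 CPM (n = 3, edgeR adjusted p = 0.652).

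Of 11 mitochondrial chaperones and proteases with a row, 3 rose and 2 fell. HTRA2, a protease of the intermembrane space, rose by 0.34 ± 0.08 on the log2 scale (SE, edgeR adjusted p = 0.00201), with 36.9% of its exon bases overlapped by AUP1 and LOXL3. CLPP (0.20) and YME1L1 (0.17) were also higher and the matrix protease LONP1 (-0.15) and GRPEL2 (-0.22), an HSP70 exchange factor, were lower, all 4 named after their values were seen. The 2 lower calls were lost without control replicate 3, OGD/R replicate 2 or OGD/R replicate 3. TRAP1, the mitochondrial HSP90, did not pass the test (0.07 ± 0.06 SE, edgeR adjusted p = 0.487).

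HSF1 stood at 148.5 ± 3.07 CPM in controls and 139.3 ± 2.77 after OGD/R, a log2 fold change of -0.09 ± 0.04 (SE, n = 3, edgeR adjusted p = 0.149). With total-count scaling it was called lower (-0.12, edgeR adjusted p = 0.0464), and in no other setting. After the length and GC correction HSF1 was at -0.03 (edgeR adjusted p = 0.703). HSF2 had -0.08 ± 0.08 (SE, edgeR adjusted p = 0.549). HSBP1, which binds HSF1 and was named after its values were seen, was higher at 0.22. Of the 6 other small heat shock genes listed, only HSPB8 had a row, and CRYAB had none.

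**Figure D4:**
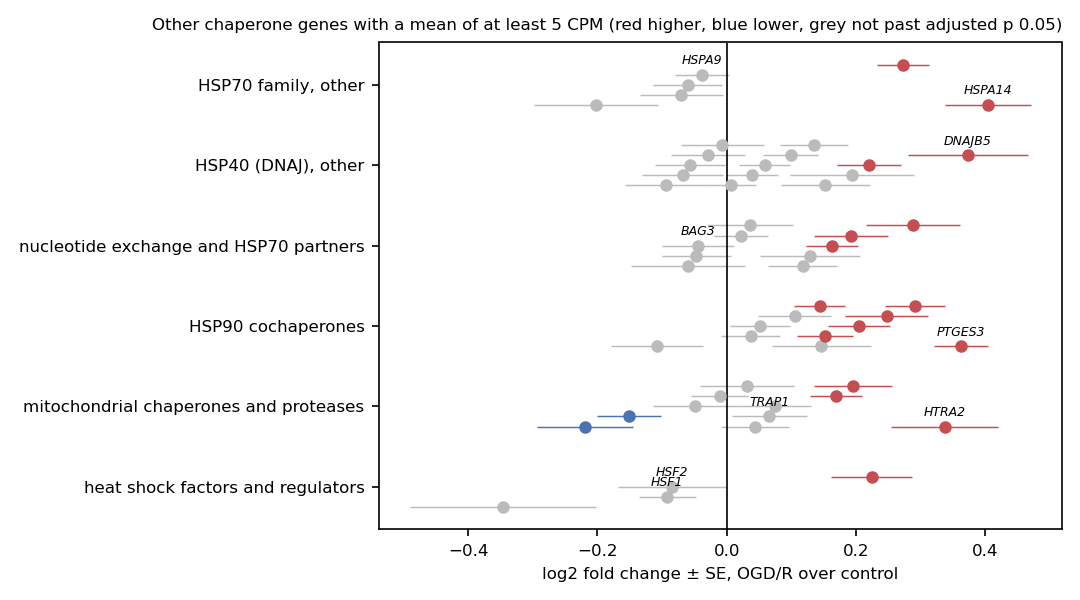
Log2 fold change ± SE (OGD/R over control) of the listed chaperone genes whose mean reached 5 CPM, by class; red points were higher, blue lower and grey not called. Genes named by the rule are labelled, and HSP90 cochaperones hold 6 of the 17 red points.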

How the data were processed

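RNA-seq read counts per Ensembl gene were deposited by the authors as 1 table for all 6 libraries. Trimmomatic, HISAT2, SAMtools, featureCounts and edgeR were used, per the submitters' processing notes, which give no versions. The notes name GRCm38, a mouse build, although the gene IDs are human, so the build behind the counts is uncertain. How strand and multi-mapping reads were handled is not stated in the sources used here. No gene had fewer than 3 libraries with 10 or more counts.

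Counts were scaled by TMM and tested with edgeR 4.0.16 (R 4.3.3), all 17104 genes together: quasi-likelihood, robust, two-sided, Benjamini-Hochberg adjusted, threshold 0.05. filterByExpr removed no gene. Standard errors came from the fold change and F. Libraries differed by more than sampling noise (chi-square per degree of freedom 4.1 to 7.53 within groups), and none was merged. Ratios used scipy 1.17.1. Exon lengths and shared sequence came from GENCODE 29, promoters from RefSeq. The edgeR code was tested on simulated data. Alternatives were limma-voom 3.58.1, DESeq2 1.42.0, scaling by RLE, by the upper quartile or by total counts, other filters, non-robust dispersions, no mitochondrially encoded genes, a replicate block, a length and GC correction (mgcv 1.9.3), HSPA1A and HSPA1B summed, and each library left out. The 10 genes, the lists and the tests were chosen with earlier results of these data known. All 10 are named. Partner genes are named when called with a log2 fold change of 0.3 or more in size and a mean of 5 CPM or more, and HSF1, HSF2, HSPA9, TRAP1, BAG3, HSPA6 and CRYAB are named whatever their values.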

Additional observations from a re-analysis of the deposited data

How the results depend on the processing

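Of the 10 genes, 6 kept direction and call under all 18 alternatives: HSPA1B, HSP90AA1, HSP90AB1, HSPB1, HSPD1 and HSPE1. In the alternative that summed HSPA1A and HSPA1B, the value counted for HSPA1B is that of the sum. The changes of the other 4 stand beside their values, and the cause was not tested. HSPA9, not called, ranged from -0.066 to 0.013 (log2 fold change) with each library left out, changing sign without control replicate 2. With each library left out in turn, the partner genes called lower ranged from 0 to 3 by edgeR, and where the count was 0, 3 were lower at an unadjusted p under 0.05. All genes called lower ranged from 1079, without control replicate 3, to 1527 in the same fits, against 1621 with all 6 libraries. The labels do not say what the replicate numbers stand for. Deviations of same-numbered libraries from their group means correlated at -0.006, 0.087 and -0.02, so no pairing was detected. With 3 libraries per group, these values cannot show that the samples were unpaired. A fit with the replicate block called 5 of the 10 genes higher and 3 lower, as without it, and 1827 higher and 1702 lower over all genes. Dropping the filter left the tested genes as they were. HSPE1, at 454 to 733 counts per library, had the least depth of the 10 genes. HSPA6, outside the 10, had 8 to 23 counts per library.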
